A study of Mus musculus with 24 samples.

Results

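The presynaptic vesicle cycle genes examined here were 40 mouse genes chosen by name from the scanner files' annotation, out of 27827 gene names on the array. They fell into 14 vesicle proteins, 13 genes of the fusion machinery, 5 active zone genes and 8 endocytosis genes. The array carried 91 probes of 60 bases for them among 41174 probes in all. Hippocampal RNA of 24 C57Bl/6 mice was hybridised to 24 Agilent 1-colour arrays, 1 mouse per array, in 6 groups of 4. The young fear group was 3 months old and was taken 1 h after contextual fear conditioning, which consisted of 3 min in a context followed by a foot shock of 0.7 mA for 2 s. The old fear group received the same conditioning at 16 months. The young context and young shock-context groups, also 3 months old, are labelled only as taken 1 h after context or shock-context exposure. The young control and old control groups, aged 3 and 16 months, were naive and untrained. No genetic change was labelled in any group.

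At a presynaptic terminal, transmitter is pumped into synaptic vesicles, the vesicles are primed at the active zone, and calcium entry makes the SNARE proteins on vesicle and plasma membrane pull the membranes together. The fused membrane is then taken back by clathrin, dynamin and membrane-bending proteins and refilled. In the hippocampus these genes are transcribed mostly in neurons, and some, such as the amphiphysin Bin1 and the dynamin Dnm2, are also active in other cells.

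A level below is the log2 processed signal of a probe minus the 75th percentile of its array, and a difference is between group means of such levels. At least 1 probe of each of the 40 genes passed the filter of being well above background on 4 or more of 24 arrays, as did 90 of the 91 probes, and 83 probes were well above background on every array. No member spot was saturated. Where a gene had several probes, the one with the highest mean level over all arrays stood for the gene. The number of arrays limits the precision of every value, and the p-values measure the spread between these arrays. In bulk tissue, fewer cells of a type and less RNA per cell cannot be told apart.

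Several facts about the arrays bear on the results. The array headers gave annotation build mm7 for the control and fear arrays and mm9 for the context and shock-context arrays. These 2 sets are called scan runs here, a split read from the build alone and not from a scan date. The 75th percentile of the signal ran from 757 to 2137 in the first run and from 3101 to 8369 in the second. Replicate 2 of the old control group stood apart: 443 of 38766 probes (1.14%) lay more than 4 log2 units below the lowest other old control array, against 0 to 4 probes on any other array, and 4 of the 443 belonged to member genes. Sv2a, for one, was 2.77, -4.07, 2.72 and 2.42 on the 4 old control arrays. The young fear group also stood apart in its tissue markers: the summed signal of 14 choroid plexus markers, in units of the array's 75th percentile, was 2.70 to 5.94 in young fear arrays against 42.0 to 72.5 in young control arrays. All 14 markers were lower there, and 10 of 13 thalamus markers were higher and 1 lower. Thalamus marker sums were 25.9 to 30.7 in young fear arrays against 18.5 to 22.0 in young control arrays. The sums for 15 hippocampal excitatory neuron markers, which include Slc17a7, were 138 to 143 in young fear arrays against 141 to 153 in young control arrays. For 11 interneuron markers the sums were 136 to 152 in young fear arrays against 145 to 179 in young control arrays. Astrocyte marker sums were 123 to 138 in young fear arrays against 173 to 209 in young control arrays, with 2 of 10 markers higher and 4 lower. Oligodendrocyte marker sums were 164 to 179 in young fear arrays against 134 to 143 in young control arrays (5 of 10 markers higher, 3 lower), and microglia marker sums were 19.05 to 20.7 in young fear arrays against 24.8 to 31.0 in young control arrays (2 of 10 higher, 3 lower). The part these differences in tissue content played in the results was not tested.

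In 3-month-old mice, fear conditioning was followed by a broad difference in presynaptic transcripts, with rises outnumbering falls. By limma, with adjusted p under 0.05, 17 of 40 genes were higher in young fear than in young control mice and 8 were lower. Among all 26176 genes tested, 13.2% were higher and 30.4% were lower, so the members held a larger share of rises and a smaller share of falls than the array as a whole. The array as a whole was not matched to the members in brightness. All 40 representative probes were well above background on every array, as were 29050 of 38768 probes tested. The median difference was -0.17 over those 29050 probes and -0.27 over all probes. The vesicular glutamate transporter Slc17a7, the fission GTPase Dnm1, the calcium-binding protein Doc2b and endophilin A1 (Sh3gl2) rose by more than 1 log2 unit, and the Rab3 effector Rph3a fell by 2.04. The median difference was 0.10 over the 40 members and -0.34 over all genes, and 34 members lay above the median of all genes. In 23 members the 4 young fear arrays did not overlap the 4 young control arrays, a pattern seen in 41.4% of all genes.

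The calls depended in part on how the arrays were scaled. Of the 17 genes that rose, 11 kept the call under all 4 other scalings, and of the 8 that fell only Rph3a did. The other 6 rises (Bsn, Doc2b, Napb, Snap25, Sv2b and Syt7) lost their calls under normexp alone. The split was 19 higher and 2 lower with quantile normalization, 17 and 5 with median scaling, 11 and 2 with normexp background correction, and 20 and 3 in the authors' deposited values. The shift of all genes moved with these choices: the median difference over all probes was -0.27 as analysed, -0.08 with quantile normalization and -0.50 with normexp. Of the 8 genes that fell, Stxbp5, Syt4 and Syn2 lay above the median of all genes. With a random block joining replicate 1 with 2, and 3 with 4, within the fear and control groups (consensus correlation 0.37, against 0.18 for slide), 15 members rose and 5 fell. Some marker sums of the fear arrays lay close within these pairs. On young fear replicates 1 to 4 choroid plexus sums were 2.76, 2.70, 5.76 and 5.94. On old fear replicates 1 to 4 thalamus sums were 30.3, 30.7, 42.1 and 41.6. Whether paired arrays were independent was not tested. The SEs and p-values as analysed treat the 4 arrays of a group as independent.

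The calls also depended on the probe that stood for the gene. With the mean of each gene's probes the counts were 17 higher and 7 lower, but the genes were in part different: 12 of the 17 rises and 3 of the 8 falls kept their call. Sh3gl2 (-0.64, adjusted p 0.0231) and Unc13a (-0.27, adjusted p 0.028) were then called lower, and Syt4 (0.25, adjusted p 0.0358) higher. Bsn (-0.06), Syt7 (-0.15) and Vamp2 (0.23) lost their rises, and Rph3a (-0.25, adjusted p 0.207), Stxbp5 (-0.05), Syn2 (0.16) and Syt11 (0.25) their falls. Calls were gained by Pclo (0.46), Rims2 (0.53), Syn1 (0.51) and Syt1 (0.34), which were higher, and by Napa (-0.26) and Snap91 (-0.38), which were lower. The Sh3gl2 mean includes a probe that was well above background on 0 of 4 young fear arrays.

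**Figure D1:**
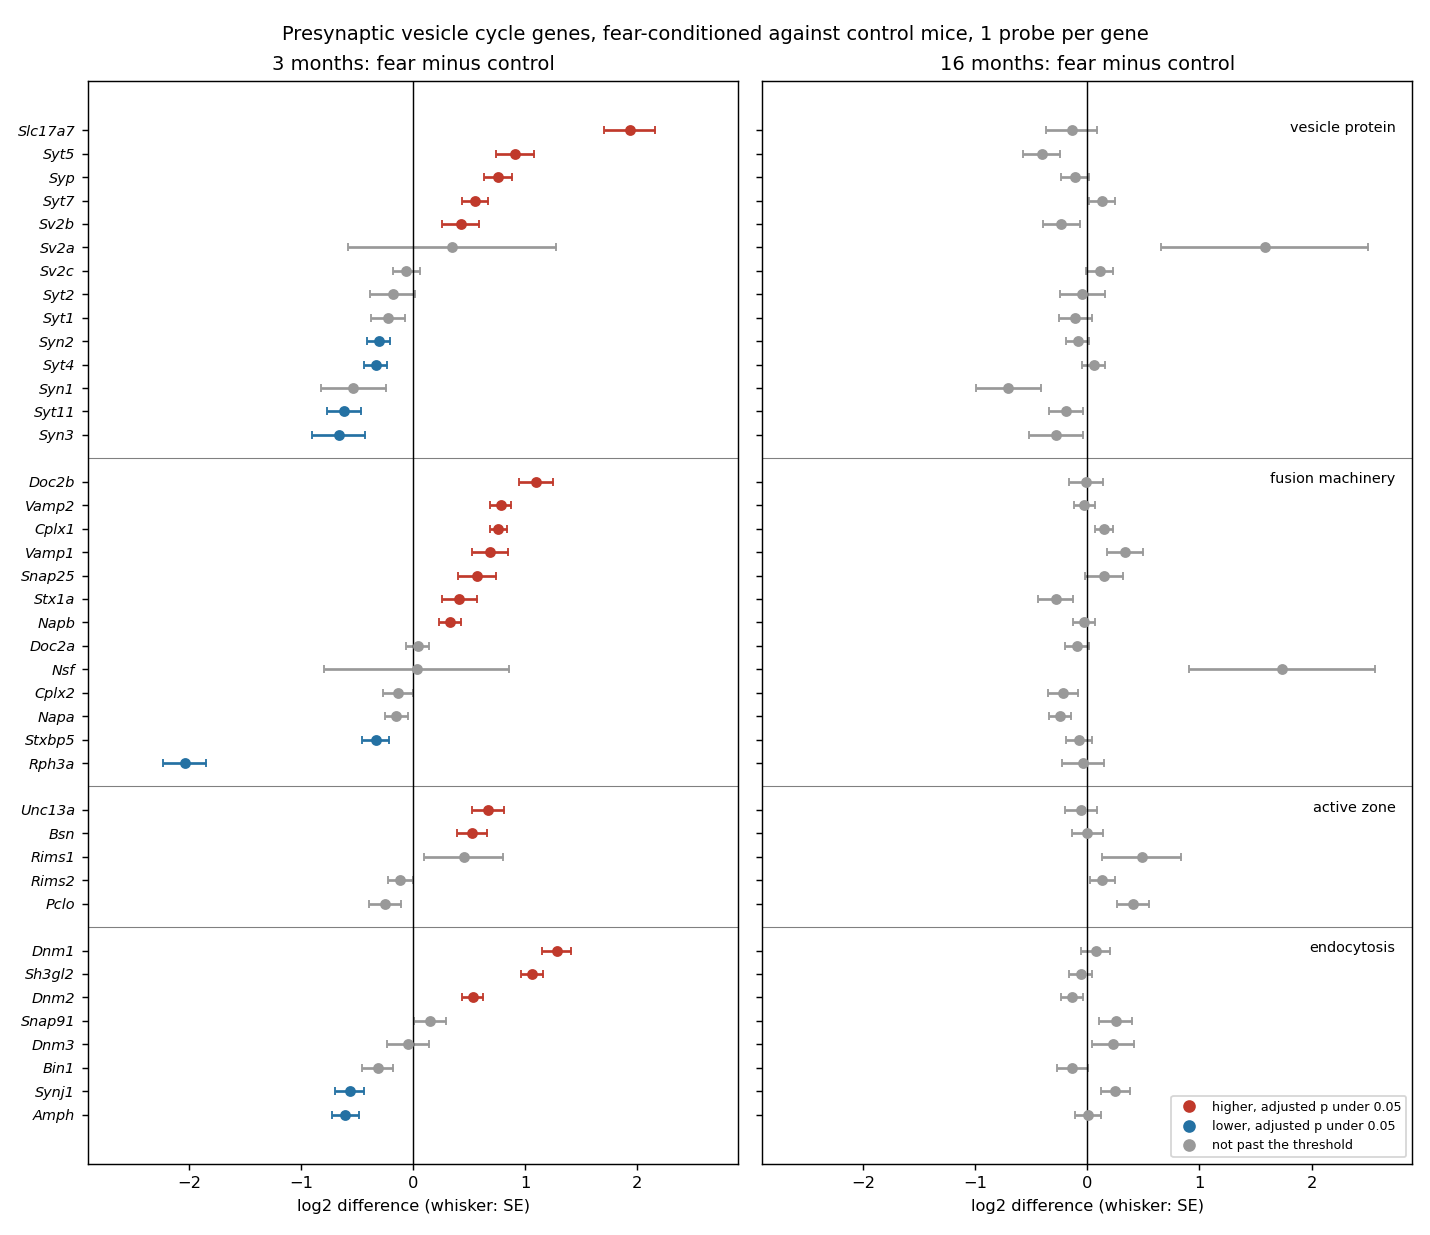
Log2 difference of each of the 40 genes (points, 1 probe per gene, whisker SE) between fear-conditioned and control mice, at 3 months and at 16 months, ordered by role along the vertical axis. At 3 months 17 genes were called higher and 8 lower, from 1.93 for Slc17a7 to -2.04 for Rph3a, and at 16 months none was called.

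Among the 14 vesicle proteins 5 rose and 4 fell at 3 months. Slc17a7 (probe at chr7:52430841-52430900 of mm9), which loads glutamate into vesicles of most hippocampal excitatory neurons, had levels of 2.43, 2.45, 3.09 and 3.04 in young fear mice, against 0.56, 0.19, 1.38 and 1.15 in young control mice. Every young fear array was above every young control array. The difference was 1.93 ± 0.23 (limma SE, n = 4 each), a 3.82-fold rise with an adjusted p of 9.72e-07. Synaptophysin, Syp (chrX:7229975-7230034), an abundant membrane protein of the vesicle, stood at 4.19, 4.23, 4.37 and 4.42 in young fear mice and 3.45, 3.35, 3.79 and 3.60 in young control mice. The groups were again separate, with a rise of 0.75 ± 0.12 (adjusted p 4.92e-05 by limma). Relative to the median of all genes, these rises came to 2.28 for Slc17a7 and 1.10 for Syp.

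The synaptotagmins, which carry calcium-binding domains and sit on vesicles or other membranes, did not move as 1 family. Syt5 (chr7:4494402-4494461) measured 0.11, 0.20, 0.40 and 0.29 in young fear mice, against -0.82, -1.13, -0.26 and -0.43 in young control mice. Its groups did not overlap and it rose by 0.91 ± 0.17 (adjusted p 0.00016). For Syt7, a slow calcium sensor, the representative probe gave 5.04, 5.01, 5.17 and 4.86 in young fear and 4.48, 4.30, 4.57 and 4.52 in young control mice, a rise of 0.55 ± 0.12 (adjusted p 0.000565) with no overlap. Syt1 (chr10:107935317-107935376), the fast calcium sensor of evoked release, read 5.0, 4.95, 4.87 and 4.96 in young fear mice and 4.91, 5.08, 5.65 and 5.04 in young control mice. These arrays overlapped and the difference of -0.22 ± 0.15 did not pass (adjusted p 0.225). Syt11 and Syt4, members that are poor calcium sensors, fell at their representative probes, with differences of -0.62 and -0.33 (adjusted p 0.00226 and 0.0123), and Syt2 had a difference of -0.18 (adjusted p 0.462).

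The other vesicle proteins showed smaller differences. Sv2b, a vesicle glycoprotein, rose by 0.42 ± 0.16 (adjusted p 0.0388) and all 3 of its probes were called higher. Its relative Sv2c differed by -0.06 ± 0.12 and was not called. The Sv2a probe includes the low old control array in its shared spread, and its difference was 0.35 ± 0.93 with that array and 0.35 ± 0.17 without it (adjusted p 0.767 and 0.103). Among the synapsins, which tether vesicles to each other, Syn3 fell by 0.66 and Syn2 by 0.31 on the log2 scale (adjusted p 0.0283 and 0.0211), although Syn2 was positive under quantile normalization (0.14) and in the authors' deposited values (0.04). Syn1 differed by -0.53 ± 0.29 at its representative probe (adjusted p 0.137), and its other probe rose by 1.54 ± 0.12 (adjusted p 5.19e-09).

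For the synaptotagmins the answer depended on which probe was read, so the probe sequences of Syt7 and Syt11 are printed here, from the deposited scanner files, 5′ to 3′ in lower case with no base marked. Probes that map to unbroken stretches of genome are given by their first 30 bases, and probes whose genome span exceeds their length, and which therefore cross an intron, are given whole. The Syt7 probes lie on the plus strand of mm9 at chr19:10525625-10525684, where the signal rose by 0.55, and at chr19:10487906-10492484, where it fell by 0.93 (adjusted p 8.13e-05).
Syt7 probe with the rise, first 30 bases: agacttagttgttacattgtttaggtagct
Syt7 probe with the fall: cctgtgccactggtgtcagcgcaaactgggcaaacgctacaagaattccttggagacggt
The Syt11 probes lie on the minus strand at chr3:88551895-88552722, with a rise of 1.12 (adjusted p 1.81e-06), and at chr3:88549722-88549781, the representative probe with the fall.
Syt11 probe with the rise: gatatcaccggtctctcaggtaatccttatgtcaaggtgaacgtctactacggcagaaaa
Syt11 probe with the fall, first 30 bases: ctagtccctgtcctttaacccatggaatgt

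By representative probes the fusion machinery held the most rises, with 7 of 13 genes higher and 2 lower in young fear than in young control mice. Over all probes this ranking did not hold. Of 28 fusion machinery probes 12 rose and 4 fell, and of 32 vesicle protein probes 14 rose and 6 fell. Vamp2 (chr11:68905527-68905586), the main SNARE of synaptic vesicles, had levels of 5.12, 5.08, 5.38 and 5.42 in young fear mice and 4.31, 4.50, 4.59 and 4.48 in young control mice. The groups were separate and the rise was 0.78 ± 0.10 (adjusted p 1.50e-06). Its relative Vamp1 rose by 0.68 ± 0.16 (adjusted p 0.00157) although its arrays overlapped. Snap25, a SNARE of the plasma membrane, measured 6.77, 6.61, 6.36 and 6.46 in young fear mice, against 6.35, 6.36, 5.37 and 5.84 in young control mice. The groups met at 6.36 without overlap and the rise was 0.57 ± 0.17 (adjusted p 0.00926), but the call was lost with normexp (adjusted p 0.0583) and when only the compared arrays were fitted (0.0649). Stx1a (chr5:135526477-135526536), its partner SNARE, read 1.55, 1.59, 1.45 and 1.43 in young fear mice and 0.93, 0.76, 1.49 and 1.19 in young control mice, with overlap. The rise of 0.41 ± 0.16 (adjusted p 0.0355) lost its call with the replicate block (adjusted p 0.0679) and without young control replicate 1 or 2 or young fear replicate 1, 2 or 3 (adjusted p 0.0504 to 0.131).

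Complexin 1, Cplx1 (chr5:108947895-108947954), which binds the assembled SNARE complex, gave 5.24, 5.08, 5.22 and 5.28 in young fear mice and 4.43, 4.48, 4.52 and 4.36 in young control mice. It had the smallest SE of the named genes, and its separate groups differed by 0.76 ± 0.08 (adjusted p 1.70e-07). Doc2b (chr11:75583506-75583565), a soluble calcium sensor of release, was at -1.88, -1.84, -1.49 and -1.20 in young fear mice, against -2.80, -2.73, -2.51 and -2.75 in young control mice. Its rise of 1.10 ± 0.15 (adjusted p 7.23e-06) came with no overlap, and the call was lost with normexp (adjusted p 0.121). Its relative Doc2a differed by 0.04 ± 0.11 and was not called. Of the genes that recycle spent SNARE complexes, Napb rose by 0.33 ± 0.10 (adjusted p 0.0088), Napa differed by -0.15 ± 0.10 and was not called, and the representative Nsf probe differed by 0.03 ± 0.16 once the low old control array was left out (adjusted p 0.872). The tomosyn gene Stxbp5, whose product holds SNAREs back, had 5 probes, with a difference of -0.33 at its representative (adjusted p 0.0272) and 0.33 at 1 other (adjusted p 0.0348).

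Rph3a, which encodes rabphilin, a protein that binds Rab3 on vesicles, had the lowest difference of the 40. Its representative probe read -1.02, -1.0, -0.22 and -0.39 in young fear mice, against 1.20, 0.94, 1.60 and 1.78 in young control mice, a fall of 2.04 ± 0.19 on the log2 scale (4.1-fold lower, adjusted p 5.56e-08). Its other probe, 915 bases away, read 1.56, 1.54, 2.01 and 1.93 in young fear mice and 0.12, -0.13, 0.53 and 0.40 in young control mice, a rise of 1.53 ± 0.14 (adjusted p 3.22e-08). Neither probe's groups overlapped, so both reported a separation, in opposite directions. They lie on the minus strand of mm9 chromosome 5, the rising one at chr5:121391012-121391071, closer to the gene's 3′ end, and the falling one at chr5:121391927-121391986.
Rph3a probe with the rise, first 30 bases: atcttcctcacatgagaggcaagtctggtt
Rph3a probe with the fall, first 30 bases: atttacaaagagatttgctctgaccttaag
Vamp2 offers a contrast in which sequence is shared. Of its 3 probes, 2 overlap by 50 bases and cross the same intron on the plus strand of chromosome 11, and their differences were 0.02 ± 0.14 and -0.13 ± 0.20, neither of them called. The third, downstream, is the representative probe that rose. Capitals mark the 50 shared bases.
Vamp2 probe at chr11:68903482-68904163: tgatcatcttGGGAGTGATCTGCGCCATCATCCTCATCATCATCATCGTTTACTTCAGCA
Vamp2 probe at chr11:68903492-68904173: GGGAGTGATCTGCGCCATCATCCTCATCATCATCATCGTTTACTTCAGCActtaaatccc
Vamp2 probe with the rise, first 30 bases: agtgtgagagagaaagcaagctatttcctt
The other Nsf probe, at chr11:103723317-103724565 on the minus strand and crossing an intron, was not among the 4 low probes of old control replicate 2 and rose by 1.01 ± 0.15 (adjusted p 1.17e-05).
Nsf probe with the rise: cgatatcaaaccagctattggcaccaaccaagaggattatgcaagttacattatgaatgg

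**Figure D2:**
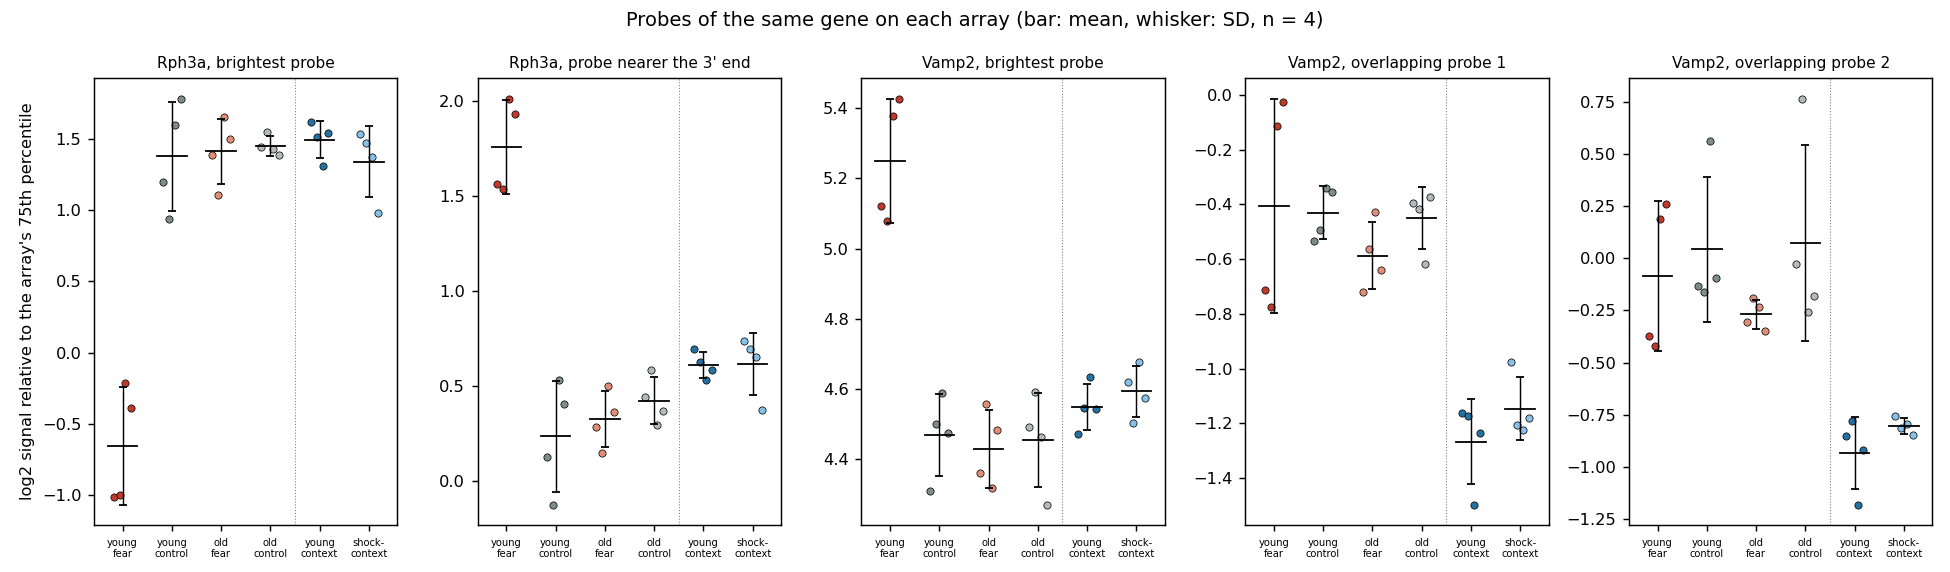
Level on each of 24 arrays (points, log2 signal relative to the array's 75th percentile, bar mean, whisker SD, n = 4 per group) of the Rph3a and Vamp2 probes whose sequences are given. The Rph3a probes separate young fear from young control arrays in opposite directions, by -2.04 and 1.53, and the overlapping Vamp2 probes differ by 0.02 and -0.13.

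At the active zone 2 of 5 genes rose and none fell by their representative probes. Unc13a (chr8:74150875-74150934), whose product Munc13-1 primes vesicles, gave 2.49, 2.38, 2.85 and 2.83 in young fear mice and 1.84, 1.90, 2.02 and 2.13 in young control mice. The groups were separate and it rose by 0.67 ± 0.14 (adjusted p 0.000684). Bassoon, Bsn (chr9:107998602-107998661), a giant scaffold, measured 3.73, 3.63, 3.77 and 3.52 in young fear mice, against 3.07, 2.95, 3.46 and 3.05 in young control mice, a rise of 0.53 ± 0.14 (adjusted p 0.00365) without overlap that was lost with normexp (adjusted p 0.135). Piccolo, Pclo (chr5:14795835-14795894), its structural relative, read 2.97, 3.05, 2.79 and 2.94 in young fear mice and 3.47, 3.33, 2.72 and 3.23 in young control mice. These overlapped and the difference of -0.25 ± 0.14 was not called (adjusted p 0.153), though it passed as a fall of 0.41 without young control replicate 3 (adjusted p 0.0133). Rims1 (chr1:22277624-22277683), which links vesicles to calcium channels, stood at 2.28, 2.29, 2.07 and 2.11 in young fear mice and 2.06, 1.80, 1.18 and 1.91 in young control mice. Its groups did not overlap, yet the difference of 0.45 ± 0.35 missed the threshold (adjusted p 0.298) and passed once old control replicate 2 was left out of the shared spread (0.45 ± 0.16, adjusted p 0.0227). Rims2 differed by -0.12 ± 0.11 and was not called.

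Every one of these 5 genes had a further probe with a called difference. The second Unc13a probe fell by 1.20 (adjusted p 5.02e-07), the second Bsn probe by 0.64 (adjusted p 0.0392) and the second Rims1 probe by 1.24 (adjusted p 9.88e-05). The second Rims2 probe rose by 1.18 and the other Pclo probes by 1.18 and 0.44. The Unc13a pair is printed as the widest split in this class. Both lie on the minus strand of chromosome 8, at chr8:74150875-74150934 (rise) and chr8:74184257-74184316 (fall), 33382 bases apart.
Unc13a probe with the rise, first 30 bases: ttcttagcatgtgactgcaaaggtagaatc
Unc13a probe with the fall, first 30 bases: cgggaatgcacgggctcatctcacagaaca

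Of the 8 endocytosis genes 3 rose and 2 fell. Dnm1 (chr2:32164345-32164404), the neuronal dynamin that pinches off vesicles, measured 4.74, 4.83, 5.09 and 5.27 in young fear mice, against 3.54, 3.43, 4.00 and 3.84 in young control mice. It rose by 1.28 ± 0.13 (adjusted p 1.67e-07) with a wide gap between groups. The ubiquitous Dnm2 (chr9:21311245-21311304) read 0.14, 0.15, 0.43 and 0.48 in young fear mice and -0.19, -0.36, -0.25 and -0.11 in young control mice, a separate rise of 0.53 ± 0.10 (adjusted p 0.000123). Dnm3 differed by -0.04 ± 0.18 and was not called. Sh3gl2 (chr4:85034126-85034185), encoding endophilin A1, which bends membrane and recruits synaptojanin, gave 2.26, 2.08, 2.15 and 2.26 in young fear mice and 1.04, 1.03, 1.14 and 1.28 in young control mice. Its groups were far apart, with a rise of 1.06 ± 0.10 (adjusted p 7.45e-08). A dimmer Sh3gl2 probe was called lower in young fear mice. It was well above background on 0 of 4 young fear arrays and 2 of 4 young control arrays, so its size is not given. The third Sh3gl2 probe was well above background on 4 of 4 arrays in both groups. Its difference of -0.89 ± 0.50 was opposite to the rise and was not called (adjusted p 0.152).

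The membrane-bending amphiphysin gene Amph (chr13:19242694-19242753) went the other way, at 5.14, 5.06, 4.60 and 4.81 in young fear mice and 5.45, 5.73, 5.34 and 5.50 in young control mice. It fell by 0.60 ± 0.12 (adjusted p 0.00029) with no overlap, and the call was lost with quantile normalization (-0.16, adjusted p 0.235) and in the authors' deposited values (-0.20, adjusted p 0.177). Synj1, the phosphatase that uncoats vesicles, fell by 0.56 ± 0.13 (adjusted p 0.00137). The clathrin adaptor Snap91 and the amphiphysin Bin1 differed by 0.15 ± 0.15 and -0.31 ± 0.14 at their representative probes and were not called.

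**Figure D3:**
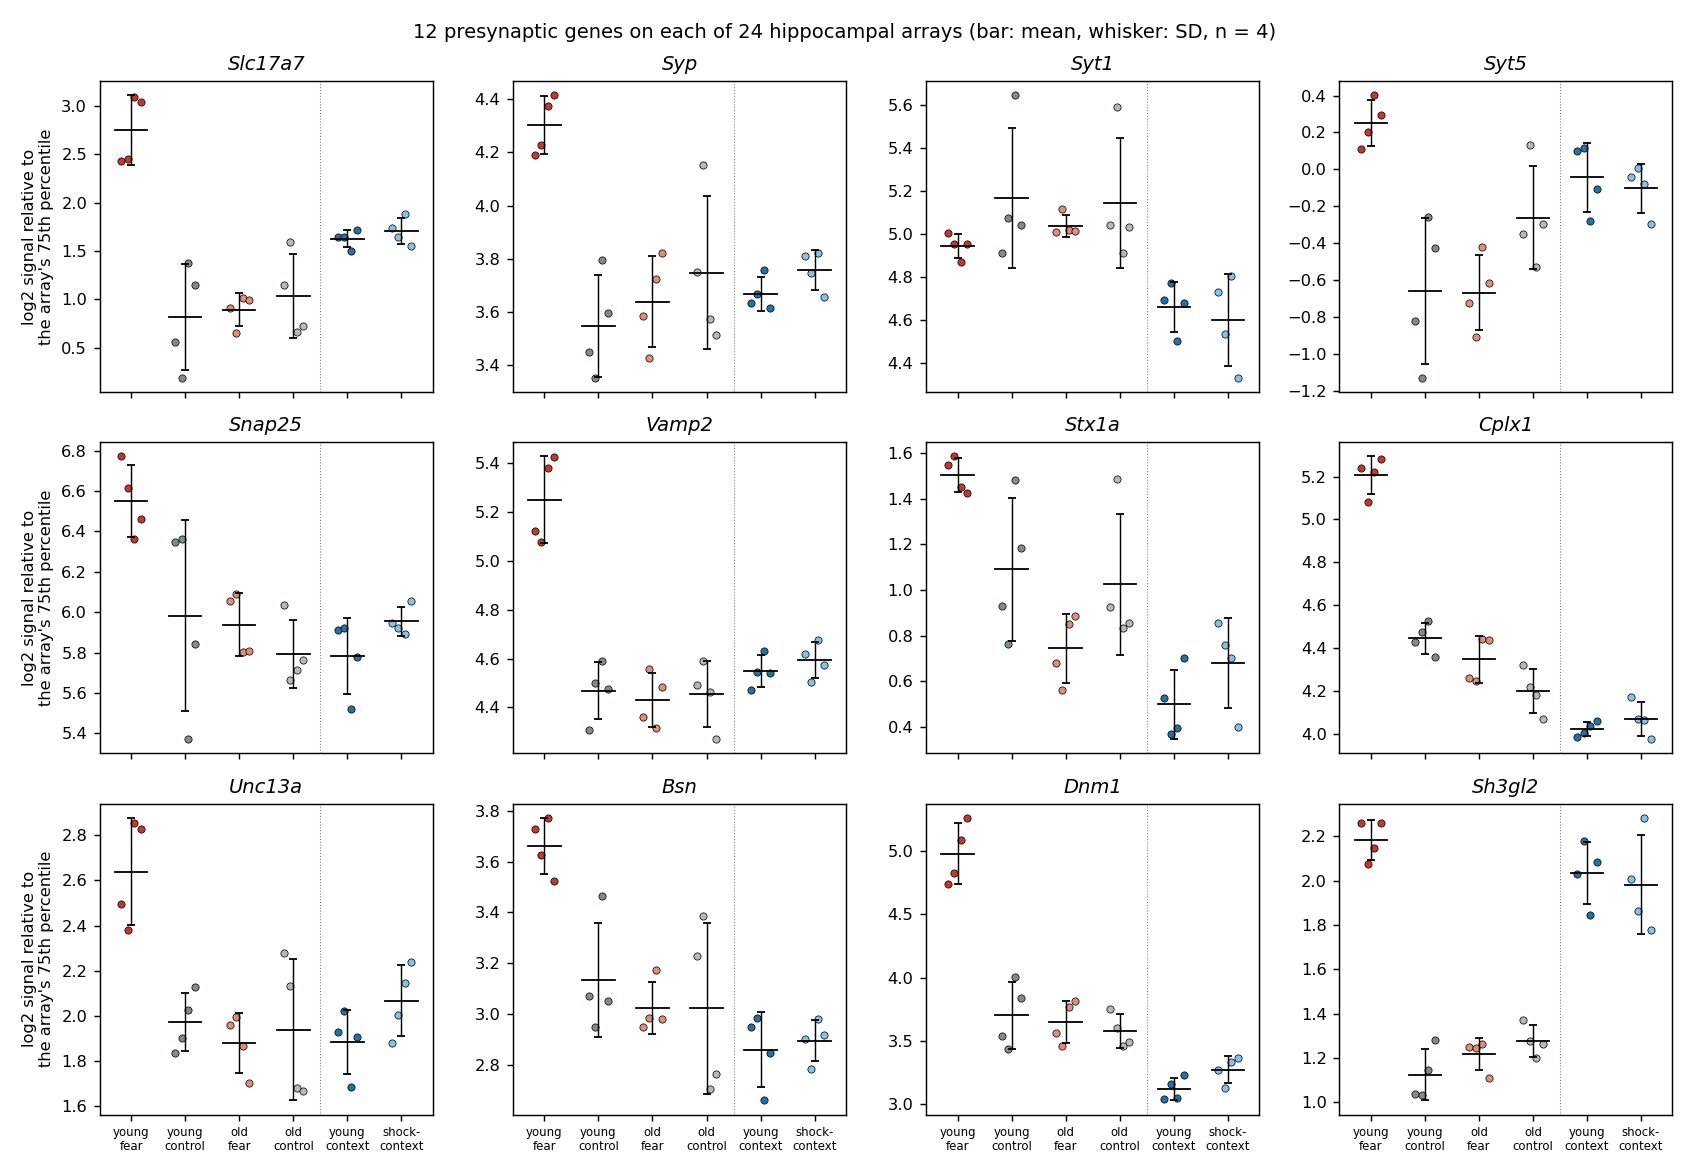
Level on each of 24 arrays (points, log2 signal relative to the array's 75th percentile, bar mean, whisker SD, n = 4 per group) for 12 of the genes. Young fear arrays lie above all young control arrays for every gene shown but Syt1 and Stx1a, while old fear and old control arrays overlap in all 12. The context groups, right of the dotted line, come from the other scan run.

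Probes of the same gene often disagreed in the young fear comparison. Over all 90 member probes 36 rose and 18 fell, against 17.2% and 27.5% of all probes tested. Of the 30 genes with several probes, 16 had at least 2 called probes, and in 12 of these the called probes had opposite signs. Over all genes the same held for 1167 of 3006, or 38.8%. The 12 genes were Bin1, Bsn, Cplx2, Rph3a, Sh3gl2, Stxbp5, Syn2, Syt1, Syt11, Syt4, Syt7 and Unc13a. Under the other settings and with single arrays left out, the number of such genes ran from 4 with normexp to 13 without old control replicate 2. Among the 87 member probes well above background on all 8 arrays compared, 10 genes had called probes of opposite sign, Bin1 and Sh3gl2 being the others of the 12. In 9 of the 12 the rising probe lay closer to the 3′ end, and it had the higher GC content in 5 and the lower in 6. Over all 29 members with several mapped probes, the probe nearest the 3′ end had the higher difference in 16. The probe nearest the 5′ end had it in 13.

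The spread between probes of 1 gene was wide in some comparisons and narrow in others. Its median over the 30 genes was 1.17 log2 units in young fear against young control, 0.30 in old fear against old control, 0.22 in old control against young control and 0.16 in young context against young shock-context. Over all genes with several probes these medians were 0.60, 0.25, 0.22 and 0.18. Young context against young control, which also crosses the scan runs, gave 1.10 for the members and 0.86 for all genes. Cplx2, a relative of Cplx1, showed a wide case: a probe that also fell on the low old control array rose by 2.28 ± 0.75 (adjusted p 0.0184) with that array in the fit and 2.28 ± 0.19 without it, while another fell by 0.69 (adjusted p 0.00124) and the representative differed by -0.13. For Snap25, 2 probes that share 40 bases gave 0.57 and 0.26, and the third gave 1.67.

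Further splits came from the vesicle and endocytosis genes. The second Syt4 probe rose by 0.84 ± 0.10 (adjusted p 1.41e-06) and a second Syn2 probe by 0.92 ± 0.12 (adjusted p 2.07e-06), both opposite to the representative. The 6 Syt1 probes ran from -0.61 to 1.33, with 2 called higher and 1 lower. A Bin1 probe rose by 1.23 ± 0.11 (adjusted p 4.65e-08), and a dim one was called lower, but it was well above background on 1 of 4 young fear arrays and 4 of 4 young control arrays, so its size is not given.

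In the other 4 genes with several called probes, the signs matched. These were Sv2b, Snap25, Pclo and Dnm2, whose called probes rose by 0.53 and 1.09. A second Sv2a probe, free of the low values on old control replicate 2, rose by 0.90 ± 0.21 (adjusted p 0.00138). Second probes fell by 0.90 for Snap91 and by 0.36 for Napa (adjusted p 0.000391 and 0.0212).

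**Figure D4:**
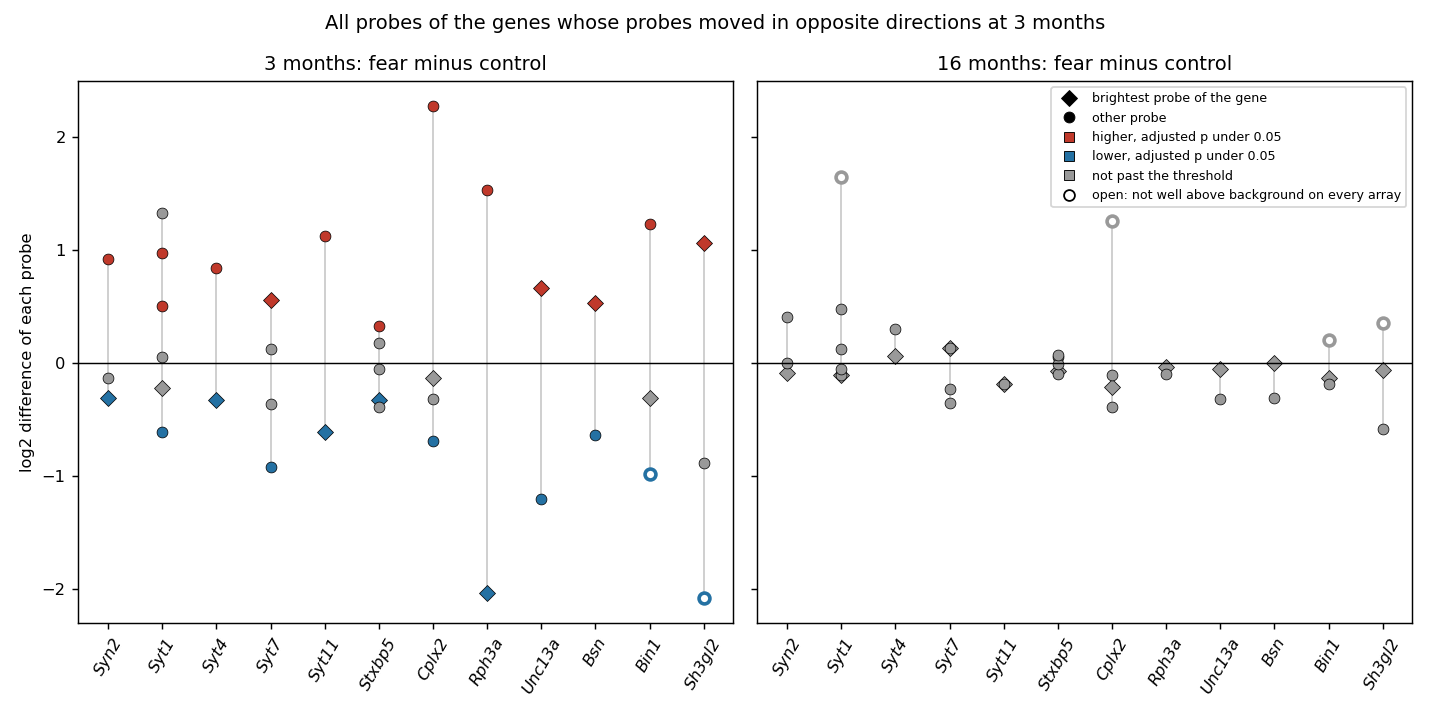
Log2 difference of every probe (points) of the 12 genes whose called probes had opposite signs, for fear against control mice at 3 months and at 16 months. Open points are probes not well above background on every array compared, and at 3 months these are a Bin1 and a Sh3gl2 probe. At 3 months the probes of Rph3a lie 3.56 log2 units apart, and at 16 months the points of most genes lie close to 0. The high points of Syt1 and Cplx2 at 16 months are probes that were low on old control replicate 2.

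At 16 months none of the 40 genes passed the test between old fear and old control mice, where 0.138% of all genes passed. At an unadjusted p under 0.05, 6 members passed, against 13.8% of all genes. The smallest adjusted p was 0.229, for Pclo, with a difference of 0.41 ± 0.14. Slc17a7 read 0.91, 0.65, 1.02 and 0.99 in old fear mice and 1.15, 1.60, 0.66 and 0.72 in old control mice, with overlap and a difference of -0.14 ± 0.23 (adjusted p 0.823). Rph3a stood at 1.39, 1.11, 1.65 and 1.50 in old fear mice and 1.45, 1.55, 1.43 and 1.39 in old control mice, a difference of -0.04 ± 0.19 (adjusted p 0.947), and its other probe differed by -0.10 ± 0.14. The arrays of both groups overlapped in all members but Syn1 and Napa, a separation seen in 8.13% of all genes.

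Member differences at 16 months ran from -0.70 for Syn1 to 1.74 for Nsf, and the largest positive ones rested on old control replicate 2. Without that array the difference was 0.24 ± 0.17 for Nsf, -0.10 ± 0.19 for Sv2a and -0.10 ± 0.17 for Rims1, and still no gene passed by its representative probe. A single other probe then passed, of Syt1, at 0.77 ± 0.12 (adjusted p 0.00838). Choroid plexus marker sums were 41.0 to 53.6 in old fear arrays and 47.7 to 71.0 in old control arrays, while thalamus marker sums were 30.3 to 42.1 in old fear arrays and 18.5 to 23.0 in old control arrays, with 6 of 13 thalamus markers higher.

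The response to conditioning was then compared between ages, as the difference at 16 months minus the difference at 3 months. By limma 4 members had a higher response in old mice and 12 a lower one, against 16.1% and 8.13% of all genes. The median was -0.09 over the members and 0.24 over all genes. Among the vesicle proteins the response was lower in old mice for Slc17a7 (-2.07 ± 0.32, adjusted p 8.70e-05), Syt5 (-1.32), Syp (-0.86) and Sv2b (-0.65). In the fusion machinery it was lower for Doc2b (-1.11), Vamp2 (-0.81), Stx1a (-0.69) and Cplx1 (-0.61) and higher for Rph3a (2.00 ± 0.27, adjusted p 2.07e-05). At the active zone it was lower for Unc13a (-0.72) and higher for Pclo (0.66). Among endocytosis genes it was lower for Dnm1 (-1.20), Sh3gl2 (-1.12) and Dnm2 (-0.67) and higher for Synj1 (0.81) and Amph (0.61).

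Some of these calls also depended on the scaling. Of the 12 lower responses 7 kept the call under all 4 other scalings, and of the 4 higher ones only Rph3a did. The split was 2 higher and 16 lower with quantile normalization, 2 and 14 with median scaling, 1 and 7 with normexp and 1 and 14 in the authors' deposited values. Pclo and Amph lost theirs under each of the 4, and the Stx1a call was lost with the replicate block (adjusted p 0.0604) and without young control replicate 2 or old fear replicate 2. Other genes gained a call. Bsn, with a difference as analysed of -0.53 (adjusted p 0.0505), was called lower with quantile normalization (-0.80, adjusted p 0.00501), with median scaling (-0.60, adjusted p 0.0196) and without young control replicate 3, old control replicate 3 or 4, young fear replicate 4 or old fear replicate 3 (-0.64 to -0.57). Syt7 was called lower with quantile normalization (-0.77) and in the deposited values (-0.73), as were Snap25 (-0.80 and -0.67) and Napb (-0.63 and -0.72), against differences as analysed of -0.42, -0.43 and -0.36. Syt7 was also called without old control replicate 3 or 4 or young fear replicate 4 (-0.51 to -0.47), and Napb with median scaling (-0.44). The 16 calls became 8 with normexp and 17 without old control replicate 2. With the mean of each gene's probes 3 responses were higher and 11 lower, and 10 of the 16 kept their call. Rph3a (0.19), Pclo (-0.11), Sh3gl2 (0.54), Sv2b (-0.43), Unc13a (0.08) and Vamp2 (-0.39) lost theirs. Of 6 members with several called probes, 4 had called probes of opposite sign, against 36.9% of all genes. These were Rph3a, Sh3gl2, Unc13a and Pclo. The other called probe gave -1.63 for Rph3a, 0.88 for Unc13a and -0.86 for Pclo. That of Sh3gl2 was well above background on 0 of 4 young fear arrays, so its size is not given. The choroid plexus markers that were low in young fear mice also differed in this contrast, 13 of 14 being higher, and the part of tissue content in the member differences was not tested.

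The 2 control groups showed no called difference in these genes. Between old control and young control mice none of the 40 passed, against 0.642% of all genes, and 5 had an unadjusted p under 0.05, against 9.61% of all genes. The smallest adjusted p was 0.213, for Cplx1, which read 4.32, 4.22, 4.18 and 4.07 in old control mice and 4.43, 4.48, 4.52 and 4.36 in young control mice. Its difference was -0.25 ± 0.08, and Cplx1 and Dnm2 were the 2 members whose groups did not overlap, as in 3.99% of all genes. For Dnm2 the levels were 0.04, -0.03, -0.10 and 0.06 in old control mice and -0.19, -0.36, -0.25 and -0.11 in young control mice. Old fear against young fear mice, which share the conditioning, differed in 24 members, 7 higher and 17 lower, where 25% and 13.1% of all genes did. The split depended on the scaling, with 1 higher and 20 lower after quantile normalization, 3 and 18 with median scaling, 1 and 12 with normexp and 1 and 19 in the authors' deposited values. It also depended on the probe. With the mean of each gene's probes 7 members were higher and 18 lower, where 35.6% of all genes were called, and 15 of the 24 kept their call. Syt4, Syt11 and Pclo turned from higher to lower and Sh3gl2 from lower to higher. At its single probe Slc17a7 was lower in old fear mice, with a difference of -1.86. Rph3a was higher at its representative probe, with 2.07, but its probes lay 3.51 log2 units apart and their mean was not called (0.32, adjusted p 0.141 by limma).

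Between young context and young shock-context mice, whose headers share an annotation build, none of the 40 genes passed and 0% of all genes did. A single member, Doc2a, had an unadjusted p under 0.05, against 5.01% of all genes. Doc2a read -0.54, -0.70, -0.67 and -0.43 in young context mice and -0.22, -0.38, -0.28 and -0.13 in young shock-context mice, a separate but uncalled difference of -0.33 ± 0.11 (adjusted p 0.88). Differences over the members ran from -0.33 to 0.18, with a median of -0.06. Slc17a7 stood at 1.65, 1.65, 1.50 and 1.72 in young context mice and 1.74, 1.65, 1.88 and 1.56 in young shock-context mice, and Rph3a at 1.62, 1.52, 1.31 and 1.54 in young context mice and 1.54, 1.47, 1.37 and 0.98 in young shock-context mice. Both sets overlapped.

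The young context and young shock-context groups can be set beside young control mice only across the scan runs, and run and group cannot be told apart there. In young context against young control mice 6 members were called higher and 19 lower, where 14% and 56.2% of all genes were. Median scaling gave 11 and 4, quantile normalization 13 and 8, and the deposited values 10 and 10. The mean of each gene's probes gave 15 and 12, where 72.7% of all genes were called in either direction. In young shock-context against young control mice the counts were 7 and 14, against 12.2% and 54.5% of all genes. Median scaling gave 12 and 2, quantile normalization 12 and 6, and the deposited values 9 and 8. The mean of each gene's probes gave 11 and 11, where 69.8% of all genes were called in either direction. In members with several called probes the signs were opposite in 13 of 20 and in 10 of 16. The shares over all genes were 34.8% and 32.3%. At their representative probes Sh3gl2 was higher in both, by 0.91 and 0.86, and Slc17a7 by 0.81 and 0.89. The Sh3gl2 probes lay 5.63 and 4.62 log2 units apart, the widest range of the members. A further Sh3gl2 probe was well above background on 0 of 4 young context arrays and 4 of 4 young control arrays. Rph3a differed by 0.12 and -0.04 and was not called, whereas Dnm1 was lower, with differences of -0.59 and -0.43. The mean Dnm1 level was 4.98 ± 0.24 in young fear, 3.12 ± 0.09 in young context, 3.27 ± 0.11 in young shock-context and 3.70 ± 0.26 in young control mice (SD, n = 4 each).

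Other genes of the same cycle, taken from lists of known vesicle cycle components, also moved in both directions. Against 43.5% of all genes called in either direction, the share called in young fear against young control mice was 61.5% of the other vesicle proteins and 68.8% of the proton pump genes, but close to that of all genes in the other fusion (40%), active zone (44%) and endocytosis (46.9%) genes. In young fear against young control mice 7 of 26 other vesicle proteins rose and 9 fell, among them Syt13 (-0.85 ± 0.16) and Syt10 (-3.20 ± 0.38) lower and Tprgl (0.67 ± 0.10) higher. For the proton pump that energises vesicle filling, 6 of 16 subunits and accessory genes rose, including Atp6v1g2 (1.58 ± 0.11) and Atp6v1a (1.19 ± 0.12), and 5 fell, including Atp6v1f (-1.13 ± 0.10). Among 20 other fusion genes 4 rose, such as the tomosyn relative Stxbp5l (1.56 ± 0.14), and 4 fell, such as the plasma membrane SNARE Stx4a (-0.65 ± 0.09). With quantile normalization the counts were 8 and 4 for the other vesicle proteins, 8 and 3 for the proton pump and 9 and 3 for the fusion genes, and with normexp they were 4 and 3, 6 and 3, and 1 and 4.

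The other active zone genes gave 7 rises and 4 falls of 25, with the scaffold Git1 higher by 1.68, the adaptor Apba2 higher by 1.00 and Lin7b lower, with a difference of -1.07. The other endocytosis genes gave 10 rises and 5 falls of 32, with clathrin chains Cltb (1.18) and Cltc (1.10) and the lipid kinase Pip5k1c (1.27) higher. With quantile normalization the counts were 9 and 3 for the active zone genes and 13 and 3 for the endocytosis genes. With normexp they were 5 and 3, and 8 and 2. All values for these lists rest on 1 representative probe per gene. In old fear against old control mice 0 genes passed in each of these lists except the other active zone genes, in which 1 was higher. Whether that call rested on old control replicate 2 was not tested.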

How the data were processed

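Signal intensity of each spot was read from the scanner files deposited by the authors, which came from Agilent Feature Extraction (version 9.5.3.1 per the file headers). The submitters' processing notes name that program and limma without versions. The authors' deposited table was taken as log2 from its values, and its scaling is not stated.

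Levels were log2 processed intensity less the 75th percentile of the array. Spots of 1 probe were averaged after removal of controls and outliers. A probe had to be well above background on 4 or more arrays, which kept 38768, all entering a single limma 3.58.1 fit (R 4.3.3) of 6 group means with 18 residual degrees of freedom. P-values were two-sided and Benjamini-Hochberg adjusted over all probes, with a threshold of 0.05. The fit was also tested on simulated data, which cannot show whether the arrays here were independent. Names and mm9 positions came from the newer annotation in the headers, which names 5 member probes that the older one does not and lacks 6 that it does. Exon and UTR annotation was not used here.

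Members, lists and tests were chosen with earlier results of these data known. Values on every array are given for up to 4 genes of smallest adjusted p per role in the young fear comparison and for a panel of Slc17a7, Syp, Syt1, Snap25, Vamp2, Stx1a, Bsn and Dnm1. Any other gene given so was chosen after its values were seen. The replicate number of control and fear arrays is the slide, of which there were 4 with 1 array of each group. Same-numbered arrays correlated above 0.1 in 15 of 24 pairs (range -0.42 to 0.65). Pairs of replicate 1 ran from 0.35 to 0.58 and pairs of replicate 3 from -0.42 to 0.40. The main fit left the slide block out, and the block was used as an alternative only. These correlations do not exclude a slide effect. Alternatives covered other scalings, filters, blocks, fitted arrays and arrays left out in turn. The mean of a gene's probes, old control replicate 2 left out of comparisons that do not use it, probes well above background on all arrays compared and other scalings for the other vesicle cycle genes were added after seeing the data.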

Additional observations from a re-analysis of the deposited data

Results flagged for a closer look

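In 17 of 240 sets of 4 arrays (40 genes in 6 groups), a single array lay far from its group, by Dixon's test of its gap to the nearest array as a share of the group's range (in brackets), and chance alone gives about 1 such set in 20. Old control replicate 2 was lowest for Sv2a (0.949) and Nsf (0.923) and highest for Stx1a (0.861), with levels of -4.07, -1.21 and 1.49. Young context replicate 3 was lowest for Sv2b (0.892), Vamp1 (0.892) and Napb (0.891) and highest for Snap91 (0.843) and Dnm3 (0.876). Young shock-context replicate 2 was lowest for Syn2 (0.830) and Syt7 (0.858). Young shock-context replicate 4 was lowest for Syt4 (0.835) and Rims1 (0.858) and highest for Stxbp5 (0.891). In the fear groups, Stxbp5 was lowest on young fear replicate 4 (0.878), Syt1 highest on old fear replicate 2 (0.909), Bsn highest on old fear replicate 3 (0.839) and Sh3gl2 lowest on old fear replicate 4 (0.897).

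The response to conditioning, taken as the old difference minus the young difference, passed the test of the difference itself for 16 genes. It was negative for Slc17a7 (-2.07), Syt5 (-1.32), Dnm1 (-1.20), Sh3gl2 (-1.12), Doc2b (-1.11), Syp (-0.86), Vamp2 (-0.81), Unc13a (-0.72), Stx1a (-0.69), Dnm2 (-0.67), Sv2b (-0.65) and Cplx1 (-0.61), and positive for Rph3a (2.00), Synj1 (0.81), Pclo (0.66) and Amph (0.61). These values are for the representative probes. Rph3a, Sh3gl2, Unc13a and Pclo each also had a probe called with the opposite sign.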

How the results depend on the processing

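Counts of called members moved by over 1.5 times in 4 cases: normexp gave 13 in place of 25 for young fear against young control, 8 in place of 16 for the response difference and 13 in place of 24 for old fear against young fear, and median scaling gave 15 in place of 25 for young context against young control. With single arrays left out, the counts ran from 20 to 27 for young fear against young control, from 14 to 20 for the response, from 20 to 25 for old fear against young fear, from 21 to 28 for young context and from 19 to 23 for young shock-context against young control, and they stayed at 0 for the other 3 comparisons. With the replicate block (slide) the counts were 24 for young fear against young control, 15 for the response and 23 for old fear against young fear, with 0 at 16 months and between controls.

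Sign changes among genes given by array under the scalings, filters, blocks and left-out arrays were limited to uncalled ones, but with the mean of a gene's probes called genes changed sign as well, and the cause was not tested. That mean gave, in young fear against young control, Sh3gl2 -0.64, Unc13a -0.27, Bsn -0.055, Syt7 -0.15, Syt1 0.34, Pclo 0.46 and Rims1 -0.39, and for the response Sh3gl2 0.54, Unc13a 0.078, Syt7 0.074, Pclo -0.11 and Syt1 -0.0055. In young fear against young control, Syt1 was 0.21 with quantile normalization and 0.28 in the deposited values, and Pclo was 0.034 with quantile normalization, 0.027 with normexp and 0.26 in the deposited values. For the response, Syt1 was -0.20 with quantile normalization and -0.26 in the deposited values, and ran from -0.042 to 0.27 with single arrays left out. Rims1 was -0.14 with quantile normalization, -0.045 with median scaling and -0.12 in the deposited values, and ran from -0.55 to 0.31 with single arrays left out. With 4 arrays per group and 1 probe standing for each gene, small differences were not resolved. The Sh3gl2 probe well above background on no young fear array gives no size of difference, and the low choroid plexus signal of the young fear group accompanies every value that uses those arrays.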
